A study of Mus musculus with 6 samples.

Results

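The genes of the cytosolic ribosomal proteins were compared between mouse embryonic stem cells without and with Sirt1, a deacetylase that depends on NAD. Members were taken by name: symbols of the large-subunit (Rpl), small-subunit (Rps) and stalk (Rplp) series that stand alone on a probe set, leaving out Rpl14, which is described on its own further on. This gave 40 genes of the 18193 named genes on the array, 21 of the large and 19 of the small subunit, each read on the 1 of its probe sets with the highest mean over the arrays. The cells were Sirt1-/- and Sirt1+/+ R1 embryonic stem cells of the strain (129X1 x 129S1)F1. Both genotypes were grown on gelatin without a feeder layer named in the labels, in medium with fetal serum and LIF, a cytokine that sustains self-renewal. RNA of 3 samples per genotype was hybridised to Affymetrix 3′ expression arrays of the mouse genome, and values below are log2 RMA levels or, where said, log2 differences of Sirt1-/- minus Sirt1+/+. The labels name 1 source per genotype, so loss of Sirt1 and other differences between these sources cannot be told apart. Nothing in them says that the 3 samples of a genotype were grown apart, so every p-value reflects the spread of these 3 samples alone, some or all of which may be technical.

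Each cytosolic ribosome holds a small subunit, which reads the mRNA, and a large subunit, which joins the amino acids. Their proteins are needed in about equal numbers, their genes are among the most transcribed in dividing cells, and they share promoter features: binding sites for ETS factors such as GABP, for YY1 and for Sp1, few TATA boxes, and a start within a run of pyrimidines. The RNA therefore begins with a 5′ terminal oligopyrimidine (TOP) tract, through which mTOR signalling and the La-related protein Larp1 set its translation together with that of other TOP RNAs. Mammalian genomes also hold many processed pseudogenes of these genes, and array probes can match several of them.

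Promoter stretches are shown for the 3 members that differed between genotypes (Rpl12, Rps6, Rps25). Another 3, whose levels were nearly equal (Rpl38, Rps18, Rplp2), are shown as examples and do not stand for all unchanged members. Each runs 5′ to 3′ from 80 bases before to 20 bases after the start annotated by RefSeq on GRCm38.p6. Capitals mark the ETS motif CCGGAAG or its reverse complement, and the pyrimidine run at the start, a C followed by at least 5 pyrimidines within 10 bases before to 15 after the start.
Rpl12 (chr2:32961632-32961731, plus strand): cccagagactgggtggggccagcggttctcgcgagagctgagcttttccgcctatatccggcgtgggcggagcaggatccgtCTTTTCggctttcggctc
Rps6 (chr4:86857348-86857447, minus strand): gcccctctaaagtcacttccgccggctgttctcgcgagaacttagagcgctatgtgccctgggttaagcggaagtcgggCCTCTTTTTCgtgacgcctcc
Rps25 (chr9:44407634-44407733, plus strand): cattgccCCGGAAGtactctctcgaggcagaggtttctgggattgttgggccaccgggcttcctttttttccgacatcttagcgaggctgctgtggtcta
Rpl38 (chr11:114668500-114668599, plus strand): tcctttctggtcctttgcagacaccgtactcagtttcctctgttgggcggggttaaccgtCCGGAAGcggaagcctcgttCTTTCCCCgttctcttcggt
Rps18 (chr17:33955646-33955745, minus strand): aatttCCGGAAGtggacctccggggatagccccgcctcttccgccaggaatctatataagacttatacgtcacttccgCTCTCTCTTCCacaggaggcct
Rplp2 (chr7:141447571-141447670, plus strand): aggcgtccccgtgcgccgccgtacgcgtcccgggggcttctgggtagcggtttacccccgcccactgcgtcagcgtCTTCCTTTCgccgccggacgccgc

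RefSeq windows from 250 bases before to 50 after the start were found for 35 of the 40 genes, 41 windows in all. The ETS motif stood on either strand in 17 of the 41 windows (41.5%), against 8.86% of the 32851 windows of all genes. ATGGCG, the core of the YY1 motif, was in 26.8% of members' windows and 8.93% of all windows, and GGGCGG, the Sp1 core, in 51.2% and 35.7%. TATAAA was about as frequent in members' windows (12.2%) as in all (13.6%). The pyrimidine run at the start was found in 20 of the 41 windows (48.8%), against 18.5% of all windows, and 11 windows held both it and the ETS motif. Among the members that differed between genotypes, the window of Rps6 held the ETS motif, outside the stretch shown, and the pyrimidine run. That of Rpl12 held the run without the ETS motif, and that of Rps25 the ETS motif without a run in the bases searched. A longer pyrimidine run in the stretch of Rps25 begins upstream of the bases searched, so it was neither counted nor capitalised. The windows of Rpl38, Rps18 and Rplp2 each held both features. Those of Rpl37a, Rps4x and Rpl27, which differed by 0.0036, -0.0043 and -0.0078 between genotypes, held neither. These matches are descriptions of letters and not of bound sites.

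Sirt1 itself, the check of the labels, read 8.02, 7.94 and 8.20 in Sirt1-/- and 10.12, 10.13 and 10.23 in Sirt1+/+ arrays, a difference of -2.11 or 4.31-fold less (limma with Benjamini-Hochberg adjustment, adjusted p = 3.98e-05). Permuting the arrays of this 1 gene in an exact test, two-sided, returned 0.1, and with 3 against 3 arrays no smaller p exists. All 10 embryonic stem cell markers lay above the median level of all genes. Of them 5 were called lower in Sirt1-/-, among them Nanog, Klf4, Tdgf1 and Sox2. The background was 17.5% lower and 12.5% higher among all named genes. Mean levels of the list were 11.56 to 11.61 in Sirt1-/- and 11.85 to 11.88 in Sirt1+/+ arrays. Of 11 fibroblast markers 9 lay below that median, among them the collagens Col1a1, Col1a2 and Col3a1, the last the lowest at 2.66. The highest was Pdgfrb, at 7.245. The list averaged 4.09 to 4.25 in Sirt1-/- and 4.35 to 4.43 in Sirt1+/+ arrays. In it 1 gene was higher and 3 were lower in Sirt1-/- against the same background. The genes called were Loxl1, Thy1, Pdgfrb and Twist1, and differences over the list ran from -1.38 to 0.48. Visceral endoderm markers averaged 4.68 to 4.84 in Sirt1-/- and 5.30 to 5.45 in Sirt1+/+. Of these, 4 of 10 were lower in Sirt1-/- (background 17.5%): Cubn, Gata6, Amn and Sox17. Over the 6 arrays the 10 ran from Afp at 4.07 to Amn at 6.66, and 9 lay below the median of all genes. Their differences ran from -2.24 to -0.01. The part of these markers in the results below was not tested, and in bulk RNA a smaller number of cells of a type and less RNA per cell cannot be told apart.

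Few ribosomal protein genes differed between the genotypes. Of the 40, Rpl12 and Rps6 were higher and Rps25 was lower in Sirt1-/-, and 37 did not pass the test (limma over all named genes, Benjamini-Hochberg adjusted p under 0.05). That is 7.50% of the members, where 30.0% of all named genes were called, 12.5% higher and 17.5% lower. The median difference of the 40 genes was 0.01, against -0.01 over all named genes, and 36 of the 40 lay within 0.1 of 0 on the log2 scale. The median was 0.02 for the large and 0.00 for the small subunit. The 3 Sirt1-/- arrays lay wholly above the 3 Sirt1+/+ arrays for 14 members (35.0%, background 19.1% of all named genes) and wholly below for 4 (10%, background 24.7%). The other 22 overlapped, where the genotypes were apart in either direction for 43.8% of all named genes.

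**Figure D1:**
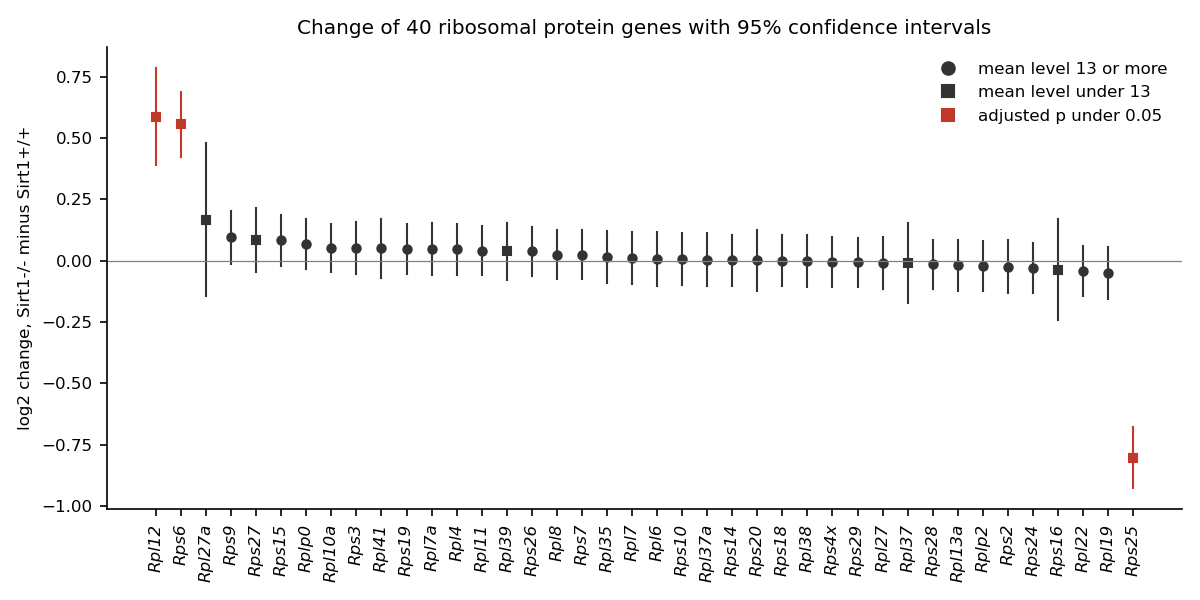
Log2 difference, Sirt1-/- minus Sirt1+/+, for each of the 40 ribosomal protein genes with its 95% confidence interval from limma (3 arrays per genotype). Circles are genes with a mean level of 13 or more and squares those under 13, and red marks an adjusted p under 0.05. Rpl12 at 0.59, Rps6 at 0.56 and Rps25 at -0.80 stand away from the rest.

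The chosen probe sets fell into 2 bands of signal. For 32 genes the mean level was 13.55 to 14.30, at or above percentile 99.7 of all named genes, and the highest value of any probe set on any array was 14.60. For the other 8 it was 10.26 or less, down to Rps16 at 2.67, which is under each array's lower quartile (3.16 to 3.24). The limit of 13 used here lies in the gap and was set after the levels were seen. Levels of different probe sets are not amounts of RNA that can be compared, and the dim band holds genes that bright probe sets shared with pseudogenes also read. All 3 genes called are in the dim band, on probe sets without a cross-hybridisation suffix.

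Rpl12, a protein of the large subunit at the base of the stalk, was on its only single-symbol probe set 9.87, 9.98 and 10.02 in Sirt1-/- and 9.29, 9.28 and 9.52 in Sirt1+/+ arrays. The genotypes did not overlap, with a difference of 0.59 (SE 0.08, limma adjusted p = 0.00254). Of the 2 probe sets annotated to Rpl12 together with other symbols neither was called. The brighter read 13.79, 13.71 and 13.75 in Sirt1-/- and 13.70, 13.68 and 13.70 in Sirt1+/+, a difference of 0.06, and the other differed by 0.05.

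Rps6, the small-subunit protein phosphorylated by S6 kinase, was 7.68, 7.71 and 7.83 in Sirt1-/- and 7.18, 7.17 and 7.20 in Sirt1+/+ arrays on the brighter of its 2 single-symbol probe sets. Every Sirt1-/- array was higher, by 0.56 on average (SE 0.06, limma adjusted p = 0.000686). Its other probe set, at a mean level of 3.73, differed by 0.08 and was not called. The brightest of the probe sets that list Rps6 with a pseudogene, at 14.35, differed by 0.01.

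Rps25, a small-subunit protein on which some viral internal ribosome entry sites depend, was 9.25, 9.31 and 9.35 in Sirt1-/- and 10.10, 10.06 and 10.16 in Sirt1+/+ arrays. The arrays did not overlap, with a difference of -0.80 (SE 0.05, limma adjusted p = 0.000148), 1.75-fold less. The 1 probe set that lists Rps25 with other symbols read 13.44, 13.47 and 13.44 in Sirt1-/- and 13.41, 13.43 and 13.50 in Sirt1+/+, a difference of 0.01 with overlapping arrays. The brightest probe set of any annotation was also taken for each gene, a choice added after the data were seen. With it 9 members were read on another probe set and all 40 had levels of at least 13.45. In the limma fit over all 45037 non-control probe sets 0 of them were called at either the adjusted or the unadjusted 0.05. At the adjusted 0.05, 9.68% of the 217 probe sets with a level of 13 or more were called in that fit. Which probe set measures each gene's own RNA was not tested.

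**Figure D2:**
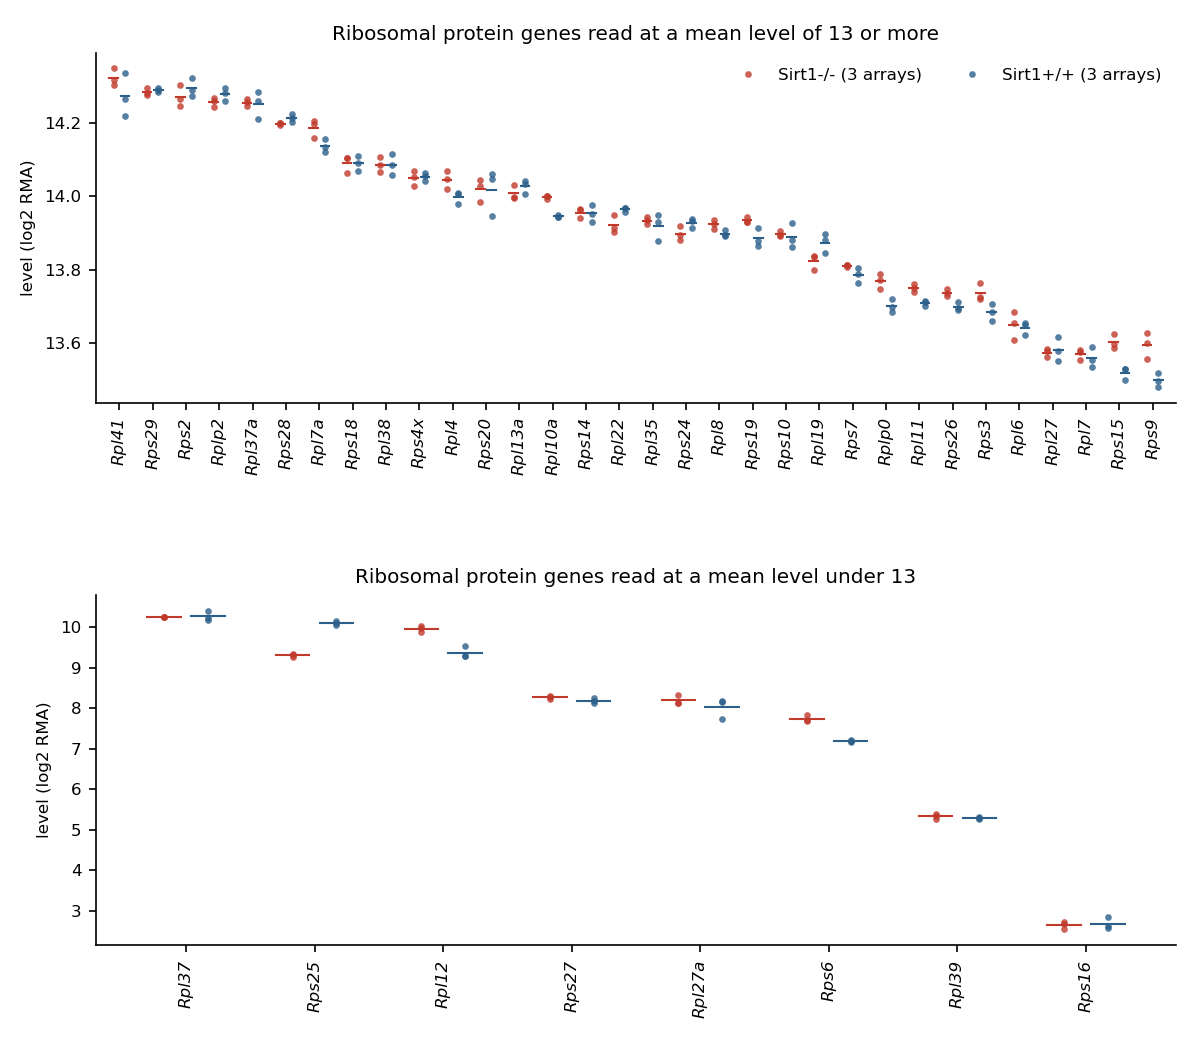
Log2 RMA levels of the 40 ribosomal protein genes on each array, Sirt1-/- (red, left) and Sirt1+/+ (blue, right), with bars at the mean of 3. The upper panel holds the 32 genes with a mean level of 13 or more and the lower the 8 under 13, where Rpl12, Rps6 and Rps25 show arrays that do not overlap.

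The other 5 dim members did not pass the test. Rpl27a, of the large subunit, had the largest of their differences, 0.17 (adjusted p = 0.405), with Sirt1-/- at 8.12, 8.13 and 8.33 and Sirt1+/+ at 7.74, 8.17 and 8.16. Of the Sirt1+/+ arrays 1 lay below every Sirt1-/- array and the other 2 lay above 2 of the Sirt1-/- arrays, so the genotypes overlap. Rps27, a small-subunit protein with a zinc finger, differed by 0.09 (adjusted p = 0.307). Rpl39, a short protein at the peptide exit tunnel encoded on the X chromosome, differed by 0.04, Rpl37 by -0.01 and Rps16 by -0.04.

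None of the 32 bright members passed limma's test at the adjusted or unadjusted 0.05, and their differences ran from -0.05 for Rpl19 to 0.10 for Rps9, at most 1.07-fold. Their 95% confidence intervals lay within -0.16 and 0.20. Among the other 40 named genes of this signal band, 30.0% were called, 15.0% in each direction. The mean of the 32 was 13.941, 13.941 and 13.944 in Sirt1-/- and 13.925, 13.928 and 13.926 in Sirt1+/+ arrays. By the mean the arrays of the genotypes did not overlap, although the gap was under 0.02. By the median of the 32 they did overlap, at 13.934, 13.936 and 13.942 in Sirt1-/- and 13.949, 13.929 and 13.938 in Sirt1+/+ arrays. Of the 32, 12 lay wholly above (37.5%, against 30.0% of the other bright genes) and 3 wholly below (9.38%, against 32.5%).

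By role, the stalk members differed little. Rplp0, which anchors the stalk, was 13.75, 13.77 and 13.79 in Sirt1-/- and 13.70, 13.72 and 13.68 in Sirt1+/+, a difference of 0.07 (adjusted p = 0.302). Rplp2, one of the acidic stalk proteins, was 14.24, 14.27 and 14.26 in Sirt1-/- and 14.26, 14.29 and 14.28 in Sirt1+/+, a difference of -0.02. Rplp1 was not a member. Rpl11, which with Rpl5 and 5S rRNA forms the particle that can inhibit the p53 ligase Mdm2, was 13.76, 13.74 and 13.75 in Sirt1-/- and 13.71, 13.70 and 13.71 in Sirt1+/+. Its arrays did not overlap and its difference was 0.04 (adjusted p = 0.546). Rpl5 and the ubiquitin fusion gene Rps27a were not members.

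In the large subunit, Rpl41, the shortest ribosomal protein and the brightest member at 14.30, was 14.30, 14.35 and 14.32 in Sirt1-/- and 14.27, 14.33 and 14.22 in Sirt1+/+, which overlap. Rpl4, which lines the exit tunnel and lies on chromosome 9 as Rps25 does, differed by 0.05, and Rpl8 on chromosome 15 by 0.03. Rpl19 was 13.84, 13.83 and 13.80 in Sirt1-/- and 13.90, 13.88 and 13.84 in Sirt1+/+, a difference of -0.05 (adjusted p = 0.471). Rpl22, a large-subunit protein that also regulates its paralog Rpl22l1, was 13.90, 13.91 and 13.95 in Sirt1-/- and 13.96, 13.97 and 13.97 in Sirt1+/+, a difference of -0.04.

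In the small subunit, Rps9, of the body of the subunit, was 13.60, 13.56 and 13.63 in Sirt1-/- and 13.49, 13.48 and 13.52 in Sirt1+/+, a difference of 0.10 (adjusted p = 0.167). Rps15, of the head, was 13.60, 13.59 and 13.62 in Sirt1-/- and 13.50, 13.53 and 13.53 in Sirt1+/+, a difference of 0.08 (adjusted p = 0.207). For both genes the arrays did not overlap. Rps29 and Rps2, at 14.29 and 14.28 the next brightest members, differed by -0.01 and -0.02. Rps24, on chromosome 14, differed by -0.03, and Rps4x, on the X chromosome, by 0.00.

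limma draws each gene's variance towards 1 value for all levels, which left the 32 bright genes a standard error of 0.0413 to 0.0519 although the median SD of their 3 arrays was 0.0199. With a variance trend over the level and robust weights, the count among the 40 was 10 higher (25%, background 35.4% in either direction and 15.0% higher) and 2 lower (5%, background 20.5%). The 9 additional genes were bright ones: Rps9, Rps15, Rplp0, Rpl10a, Rps19, Rpl7a, Rps3 and Rpl4, higher by 0.05 to 0.10, and Rpl19, lower by 0.05. Under that model 62.5% of the other bright genes were called, 30.0% higher and 32.5% lower.

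Probe sets of these genes other than the chosen ones gave 6 further calls in a fit over all 45037 non-control probe sets, of which 19.8% were called, 9.46% higher and 10.3% lower. Rps3, a small-subunit protein at the mRNA entry, had a dimmer probe set at 10.53, 10.51 and 10.43 in Sirt1-/- and 9.65, 9.60 and 9.65 in Sirt1+/+, a difference of 0.86 (limma adjusted p = 0.000219), where its chosen one differed by 0.05. Dimmer probe sets were higher also for Rps10 (0.48), Rpl22 (0.36) and Rpl13a (0.31 and 0.24), and lower for Rps20 (-0.23). No member had probe sets called in opposite directions. On the probe sets that list ribosomal protein genes together with other symbols, Rpl14 left out, 8 of 105 were called higher and 0 lower, and such a probe set does not tell which listed gene changed. They included a probe set listing Rpl15 at 12.06, 12.09 and 12.07 in Sirt1-/- and 11.39, 11.48 and 11.38 in Sirt1+/+ (0.66), and 2 listing Rpl5 (0.59 and 0.54). The brightest probe sets listing Rpl15 and Rpl5, at mean levels of 13.98 and 14.21, differed by -0.03 and 0.02 and were not called. For Rpl13 a bright probe set, at a mean level of 14.21, was itself called higher (0.21). Its other probe sets, the brightest among them, differed by 0.11, 0.09 and 0.18 and were not called.

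Calls were also counted by band of signal. Over both kinds of probe set, 2 of 128 with a level of 13 or more were called (1.56%, both higher), against 9.68% of all 217 non-control probe sets of that band, 5.99% higher and 3.69% lower. Between 5 and 13 it was 15 of 53 (28.3%, 13 higher and 2 lower), against 37.1% of 19719 probe sets, 18.0% higher and 19.1% lower. Under a level of 5 it was 0 of 15, against 6.29% of 25101 probe sets. Whether probes near the top of the range compress differences was not tested.

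**Figure D3:**
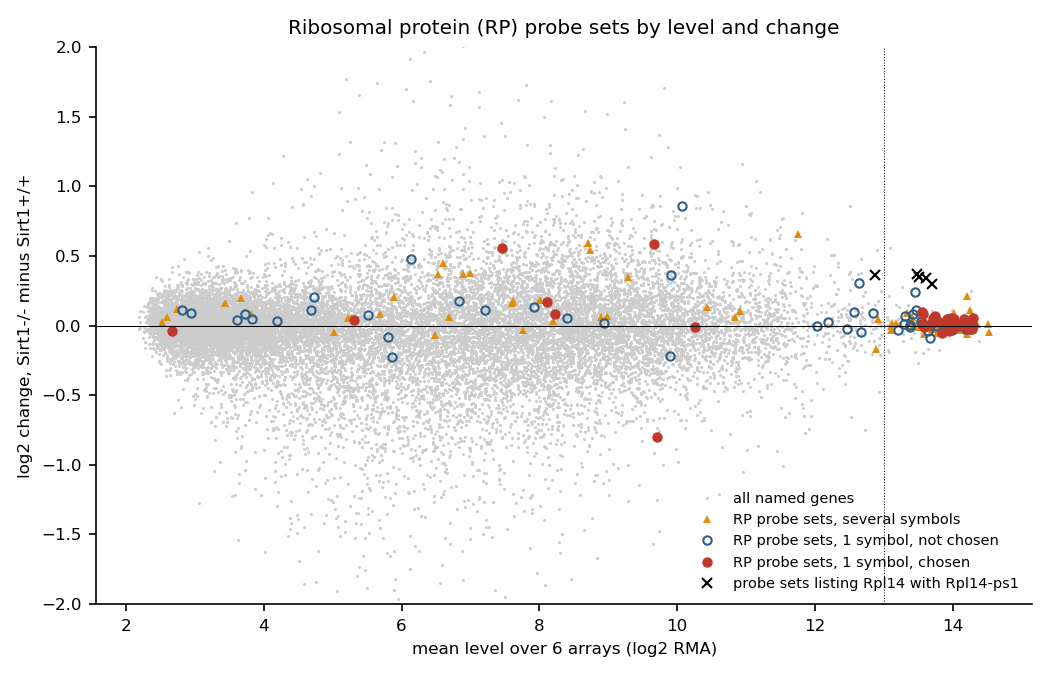
Mean log2 RMA level over 6 arrays (horizontal) against the log2 difference, Sirt1-/- minus Sirt1+/+ (vertical), for named genes (grey) and ribosomal protein probe sets (coloured). The dotted line marks a level of 13. Differences beyond 2 in either direction, 22 named genes, are off the axis. Most coloured points right of the line lie close to 0, and those farthest from 0 lie left of it.

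Rpl14, a large-subunit gene on chromosome 9, stood apart from the members. On its only single-symbol probe set it was 9.96, 10.05 and 10.08 in Sirt1-/- and 8.40, 8.36 and 8.52 in Sirt1+/+, a difference of 1.60 (limma adjusted p = 4.37e-05). The 5 probe sets that list it with a pseudogene, at mean levels of 12.86 to 13.69, were all called higher, by 0.30 to 0.37. Rpsa, a small-subunit gene outside the name pattern and also the laminin receptor precursor, was 14.37, 14.39 and 14.42 in Sirt1-/- and 14.13, 14.16 and 14.14 in Sirt1+/+, a difference of 0.25 (limma adjusted p = 0.00595). It lies on chromosome 9 near Rpl14, with 4 protein-coding genes between them, of which 1 was higher, 1 lower and the median difference was 0.33. Read on its dimmest probe set, Rpsa was not called (0.44, adjusted p = 0.137). Fau, which encodes a ubiquitin-like fusion of the small-subunit protein Rps30, differed by 0.04 (adjusted p = 0.533).

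Of 7 measured paralogs, some of which can replace a ribosomal protein in some cells or stages, 1 was higher and 2 were lower (42.9%, background 30.0%). Rpl39l, the paralog of Rpl39 that is best known from testis, was 8.66, 9.0 and 8.94 in Sirt1-/- and 10.42, 10.37 and 10.51 in Sirt1+/+. Its difference of -1.57 (SE 0.10, limma adjusted p = 0.000141) was larger than that of every member, and the arrays were far apart. Rps4l, a paralog of Rps4x, was 11.47, 11.45 and 11.44 in Sirt1-/- and 11.97, 11.98 and 11.97 in Sirt1+/+, a difference of -0.52 (adjusted p = 0.000319). Rpl22l1 was 13.09, 13.23 and 13.18 in Sirt1-/- and 12.60, 12.59 and 12.68 in Sirt1+/+, a difference of 0.54 (adjusted p = 0.000763). Rpl22 differed by -0.04 on its chosen probe set and by 0.36, called higher, on its dimmest. Rpl7l1 and Rsl24d1, which take part in large-subunit assembly, differed by -0.15 and -0.14 (adjusted p = 0.0794 and 0.0571). Rps27l, a p53 target, and Rpl3l, of striated muscle, did not pass the test either.

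**Figure D4:**
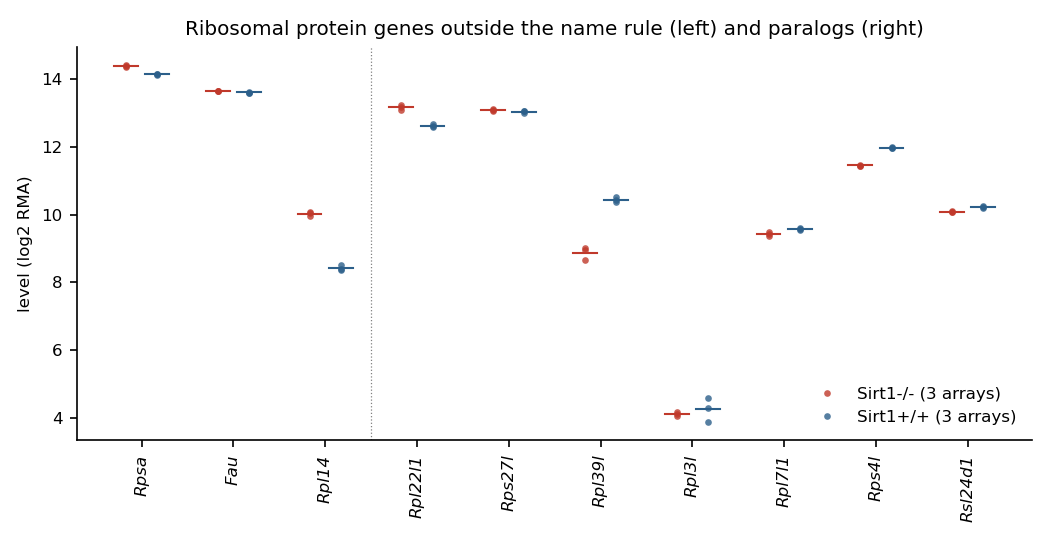
Log2 RMA level on each array for ribosomal protein genes outside the name pattern or left out (left of the dotted line) and for paralogs (right), Sirt1-/- in red on the left and Sirt1+/+ in blue, with bars at the mean of 3. Rpl14 and Rpl22l1 are higher and Rpl39l and Rps4l lower in Sirt1-/-, with arrays that do not overlap.

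Among the genes that make, assemble and regulate the ribosome, the share called ran from 27.8% to 53.1% by list. Of all named genes 30.0% were called, 12.5% higher and 17.5% lower, but these also count dim genes. The lists averaged 8.20 to 12.87 on the arrays, against a median level of 5.83 for all named genes. In a fit without the dimmest 40% of genes 53.9% were called, 23.4% higher and 30.5% lower. Among the brightest 25% it was 68.7%, 34.5% higher and 34.3% lower. The lists were not matched for level. Translation factors and other genes whose RNAs carry a TOP tract, as those of the members do, gave 5 of 18 higher and 0 lower (27.8%, median 0.09). Eif4b, a helicase cofactor of initiation, was 12.58, 12.50 and 12.52 in Sirt1-/- and 12.09, 11.97 and 12.03 in Sirt1+/+, a difference of 0.50. The importin Ipo5 differed by 0.46, the RNA-binding protein Hnrnpa1 by 0.43 and the histone chaperone Nap1l1 by 0.29. Regulators of TOP RNAs and of S6 gave 4 of 16 higher and 2 lower (37.5%, median 0.03). Mtor itself was 8.62, 8.62 and 8.70 in Sirt1-/- and 8.96, 8.90 and 8.93 in Sirt1+/+, a difference of -0.29. Its sign turned to 0.10 when its probe sets were averaged and to 0.03 on the dimmest. Eif4ebp1, which represses cap binding, differed by 0.35, Mlst8, an mTOR subunit, by 0.30 and Larp4 by 0.23.

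Of 32 factors of the small-subunit processome and 40S maturation 9 were higher and 8 lower (53.1%, median 0.00). The endonuclease Nob1, which makes the final cut of 18S rRNA, was 9.82, 9.89 and 9.89 in Sirt1-/- and 9.38, 9.32 and 9.32 in Sirt1+/+, a difference of 0.53. Utp4 differed by 0.52 and Rrp12 by 0.50, while the assembly factor Bysl differed by -0.44. Of 30 factors of 60S maturation 4 were higher and 6 lower (33.3%, median -0.03), with Nip7 at 0.68, Tma16 at 0.67, the nucleolar GTPase Gnl3 at 0.52 and Rrp1b at -0.51, the last of which read 0.0826 on its dimmest probe set. Nob1, Utp4, Nip7, Tma16 and Eif4ebp1 lie on chromosome 8, where 313 of 932 named genes were higher (33.6%) and 98 lower. The members include no gene of that chromosome, and the part of the chromosome in these values was not tested. Chaperones and importers of ribosomal proteins gave 4 of 14 higher and 1 lower (35.7%). That list shares Ipo5, Ipo7 and Nap1l1 with the list of TOP genes. Tsr2, the chaperone of Rps26, was 8.53, 8.60 and 8.65 in Sirt1-/- and 7.91, 7.64 and 7.93 in Sirt1+/+, a difference of 0.77. Rps26 itself differed by 0.04. Pdcd2l, of the same list, differed by 0.18.

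RNA polymerases I and III, which make the ribosomal RNAs, gave 7 of 27 higher and 7 lower (51.9%, median 0.02). Polr3a, the catalytic subunit of polymerase III, differed by 0.64 and the 5S RNA factor Gtf3a by 0.52, while the second largest subunits of both enzymes were lower, Polr1b by -0.62 and Polr3b by -0.49. On their dimmest probe sets Polr3a and Polr3b turned sign, to -0.0348 and 0.0346. Factors that bind ribosomal protein promoters gave 3 of 13 higher and 3 lower (46.2%, median -0.01). Gabpb1, the partner that carries the activation domain of GABP, was 8.80, 8.85 and 8.81 in Sirt1-/- and 7.30, 7.30 and 7.37 in Sirt1+/+, a difference of 1.5 (limma adjusted p = 2.89e-05). Gabpa, the partner that binds the ETS motif shown above, was 10.62, 10.72 and 10.67 in Sirt1-/- and 11.01, 11.01 and 11.06 in Sirt1+/+, a difference of -0.36 (adjusted p = 0.0023). Sp1 differed by 0.51 and Nfyb by -0.40. In the axis from the 5S particle to p53, 3 of 8 were higher and 1 lower (50%, median 0.07). The cell cycle inhibitor Cdkn1a differed by 0.20, Mdm2 by 0.19 and Nop53 by 0.16, and Pml was lower, at 7.43, 7.64 and 7.65 in Sirt1-/- and 8.39, 8.26 and 8.35 in Sirt1+/+, a difference of -0.76. On the dimmest probe set Pml read 0.11 and Mdm2 -0.0728.

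**Figure D5:**
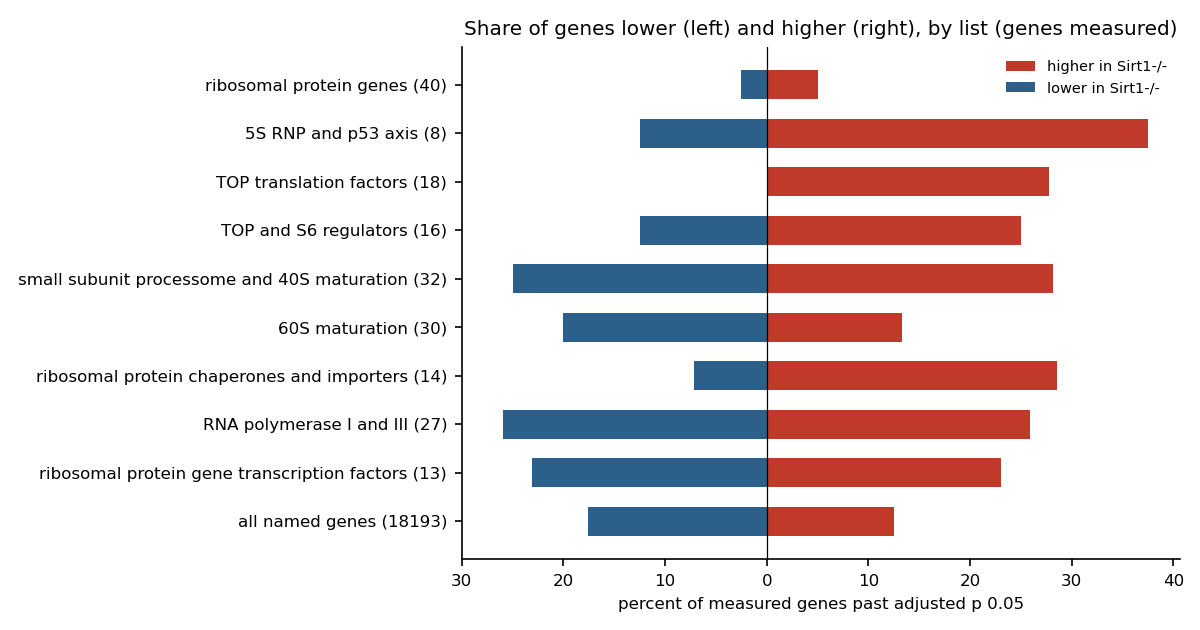
Percent of measured genes past an adjusted p of 0.05, lower in Sirt1-/- to the left in blue and higher to the right in red, with the number of genes measured in brackets. The bar of all named genes also counts dim genes. In a fit without the dimmest 40%, not drawn here, 30.5% were lower and 23.4% higher. The 40 ribosomal protein genes, at 2.5% lower and 5% higher, stand beside all named genes at 17.5% and 12.5%; with the variance trend, not drawn here, the members had 5% lower and 25% higher, beside 20.5% and 15.0%.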

How the data were processed

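RNA of 3 Sirt1-/- and 3 Sirt1+/+ samples was measured, grouped by the genotype in the labels. The authors deposited log2 levels, made according to the submitters' processing notes by RMA and with Partek 6.5. That they are log2 was read off the range of the values, which were neither recentred nor rescaled here. Of 45101 probe sets, 64 were controls, 34945 carried 1 symbol, 932 several and 9160 none. Each of 18193 named genes took its single-symbol probe set with the highest mean, with no filter on dim ones. A suffix _a, _s or _x on a probe set means that probes match several transcripts or genes. The test was limma's (version 3.58.1, under R 4.3.3; lmFit, eBayes, two-sided, Benjamini-Hochberg over all genes at 0.05, 4 residual degrees of freedom), and the procedure was tested on simulated data. The 3 arrays per genotype limit the precision. Named were members past the threshold, the 5 largest rises and falls, the 3 brightest and dimmest, stalk, 5S particle and S6 members, those on chromosomes 8, 9, 14, 15 and X, and up to 4 called genes per list. Members and lists were chosen with earlier results of these data known. Rps3, Rps10, Rpl13a and others outside this rule were named after their values were seen. Alternatives covered probe set choice, level filters, normalisation, variance model, threshold, block and left-out arrays. The build behind the array's annotation was not known here, so only the RefSeq promoter windows on GRCm38.p6 carry coordinates.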

Additional observations from a re-analysis of the deposited data

How the results depend on the processing

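Rpl12 stayed higher (0.55 to 0.67) and Rps25 lower (-0.83 to -0.78) under every setting that gave them a value on a single-symbol probe set. Rps6 was not called on its dimmest probe set (0.08). Without suffixed probe sets 20 members stayed, of which 4 were higher and 2 lower, while 11.1% of the 16591 genes left were higher and 16.2% lower. On the dimmest probe set 4 of 40 were higher (background 7.81%), with the variance trend 10 (15.0%) and in the unmoderated model 7 (11.4%). The trend called 2 lower (20.5%). In the fit of all 45037 non-control probe sets 9.46% were higher and 10.3% lower, 19.8% in all. Of the members' 91 single-symbol probe sets 7 were higher and 2 lower, 9.89% in all. These lay in 6 members with a probe set called higher and 2 with 1 called lower. With the brightest probe set of any annotation, a choice added after the data were seen, 0 members were higher and 0 lower in that fit. Of all its probe sets with a level of 13 or more, 5.99% were higher and 3.69% lower. The members' median was 0.0282 after centring arrays, 0.0455 for the mean of probe sets, 0.0807 without suffixes, 0.0479 on the dimmest and 0.0195 over all probe sets. Of the 4549 brightest genes 3127 were called (68.7%). Of 18193 genes 2904 were called on the dimmest probe set (16.0%) and 3356 at an adjusted p under 0.01 (18.4%), and of the 45037 probe sets 8912 (19.8%). Leaving out each array in turn gave 4104 to 4753 genes called, 2 to 2 members higher, 1 to 1 lower, a median of 0.0107 to 0.0224, and -2.18 to -2.05 for Sirt1. Signs turned for Mtor (0.10 as a mean, 0.0252 on the dimmest probe set), for Rps20 (-0.23) and Mdm2 (-0.0728) without suffixes, and on the dimmest probe set for Mdm2 (-0.0728), Rpl13a (0.31), Rpl22 (0.36), Pml (0.11), Rrp1b (0.0826), Polr3a (-0.0348) and Polr3b (0.0346); the cause was not tested. Of 1515 single-gene values over 92 genes, 1358 kept direction and side of the threshold, 67 lost the call, 31 gained it and 11, those named above, turned sign with a call in at least 1 of the fits. Another 48 turned sign with no call in either fit. Of these, 6 came with centring, which adds 0.0188 to every difference. Like-numbered arrays deviated from their group means with correlations of 0.05, -0.09 and 0.20 across genes. The labels name no pairing, and these correlations cannot tell whether like-numbered samples share a culture or batch. With the replicate block 4700 genes were called, 2 members higher and 1 lower, with a median of 0.01, and Cdkn1a, Mdm2, Nop53, Mlst8 and Pdcd2l lost their calls. Signal limits what can be said of Rps16, whose probe set reads below the lower quartile of every array.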
